A study of Macaca mulatta with 11 samples.

Results

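Cumulus cells that had matured in culture were set against cumulus cells from both in vivo states, before and after maturation in the animal, to find the genes whose level was seen in neither in vivo state. A gene was described when all 3 in vitro matured (IVM) arrays lay above the highest, or all 3 below the lowest, of the 8 arrays of the pre-maturation (PM) and in vivo matured (VVM) groups. This held for 2137 of the 14132 genes with a symbol on the array, 15.1% of them, with 1293 genes (9.15%) above the range and 844 (5.97%) below it. The same 11 values decide that position and enter the test of the contrast IVM minus the mean of PM and VVM, so a call of such a gene is not independent support for it. Over all genes the contrast was called, at an adjusted p under 0.05, for 4487 genes or 31.8%, of which 2402 (17.0%) were higher in IVM and 2085 (14.8%) lower. Outside the range and called were 1994 genes (14.1%), 1178 higher (8.34%) and 816 lower (5.77%), and the other 143 outside the range were not called.

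The samples were total RNA of rhesus monkey (Macaca mulatta) cumulus cells, 1 sample to an Affymetrix array, and every animal had received follicle-stimulating hormone (FSH). The 4 PM samples came from immature cumulus-oocyte complexes and had FSH only. The 3 IVM samples had FSH followed by maturation of the complexes in culture, and the 4 VVM samples had FSH followed by maturation in the animal under human chorionic gonadotropin (hCG). The series was built to find cumulus cell markers of oocyte quality, with PM as the starting point for both forms of maturation. Age, culture medium, culture time and pooling of complexes or animals are not given in the sources used here. Separate animals for the samples within a group are not stated either, and the p-values then measure only how these samples spread, which may be technical.

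Cumulus cells are the granulosa-derived cells that surround the oocyte and feed it amino acids, pyruvate and cyclic nucleotides through gap junctions. In the animal the midcycle gonadotropin surge, which hCG stands in for, reaches them through EGF-like ligands, after which they stop dividing, lay down a hyaluronan matrix and begin to make progesterone. In culture the complex is taken out of the follicle, and the supply of hormones, nutrients and oxygen is that of the medium. The oocyte itself holds the cumulus phenotype through secreted factors of the TGF-beta family, which act through SMAD proteins. Each RNA sample is a bulk of cells, so fewer cells of a type and less RNA per cell cannot be told apart.

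Before the genes, the arrays themselves have to be described, because the IVM arrays also stood apart in their technical controls. The bacterial hybridization control probe sets had a mean log2 level of 11.92 ± 0.40 in IVM (SD, n = 3), 10.09 ± 0.21 (n = 4) in PM and 11.04 ± 0.43 (n = 4) in VVM, and all 3 IVM arrays lay above the other 8. The 3' minus 5' log2 difference of the ACTB and GAPDH control probe sets, a measure of RNA integrity and amplification, was 3.92 ± 0.39 in IVM, 3.38 ± 0.10 in PM and 3.70 ± 0.19 in VVM, with overlap between IVM and VVM. With the hybridization control level as a covariate the median standard error of the contrast rose from 0.154 to 0.337. Then 4 genes were called (ALDH1L1, CNST, KLF6 and a probe set annotated as USP14), and 1946 of the 1994 genes outside the range and called kept their sign. The 1994 were chosen on the same values, so the kept signs are no test. Since the IVM arrays stood apart in the covariate, the culture and what moved the controls cannot be told apart for any gene, the 4 included. With the 3' to 5' difference as a covariate 916 genes were called higher and 997 lower. Of 14 measured oocyte markers 2 lay above the range, against 9.15% of all genes, and both, ZP1 and NOBOX, were called (contrasts 0.79 ± 0.16 and 0.57 ± 0.11, adjusted p = 0.00522 and 0.00441). The list's median contrast was -0.18, with 10 of the 14 below 0, and without PM 1 it was 0.073, with 11 above 0. The mean of 13 measured cumulus and granulosa markers was 9.42 to 10.04 in IVM, 10.29 to 10.54 in PM and 9.04 to 9.38 in VVM. Against 17.0% and 14.8% of all genes, 2 of the 13 were called higher and 2 lower. INHA, an inhibin subunit, was 1 of the latter, at 13.28 ± 0.26 in IVM, 13.84 ± 0.11 in PM and 13.49 ± 0.09 in VVM (SD; contrast -0.39 ± 0.12, adjusted p = 0.0312), a call lost without PM 3, IVM 1, IVM 2 or VVM 2 (-0.37 to -0.27), and SERPINE2 was at 14.35 ± 0.18 in IVM, 14.53 ± 0.05 in PM and 14.45 ± 0.06 in VVM. The mean of the 18 measured leukocyte markers was 5.56 to 5.67 in IVM, 5.42 to 5.53 in PM and 5.63 to 7.23 in VVM, and that of the 14 oocyte markers 5.16 to 5.35, 4.92 to 6.96 and 5.15 to 5.60. Without PM 1, VVM 2 and VVM 3, in which markers of other cells were high, 1354 genes were called higher, and 1595 of the 1994 were outside the range and called as before.

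**Figure D1:**
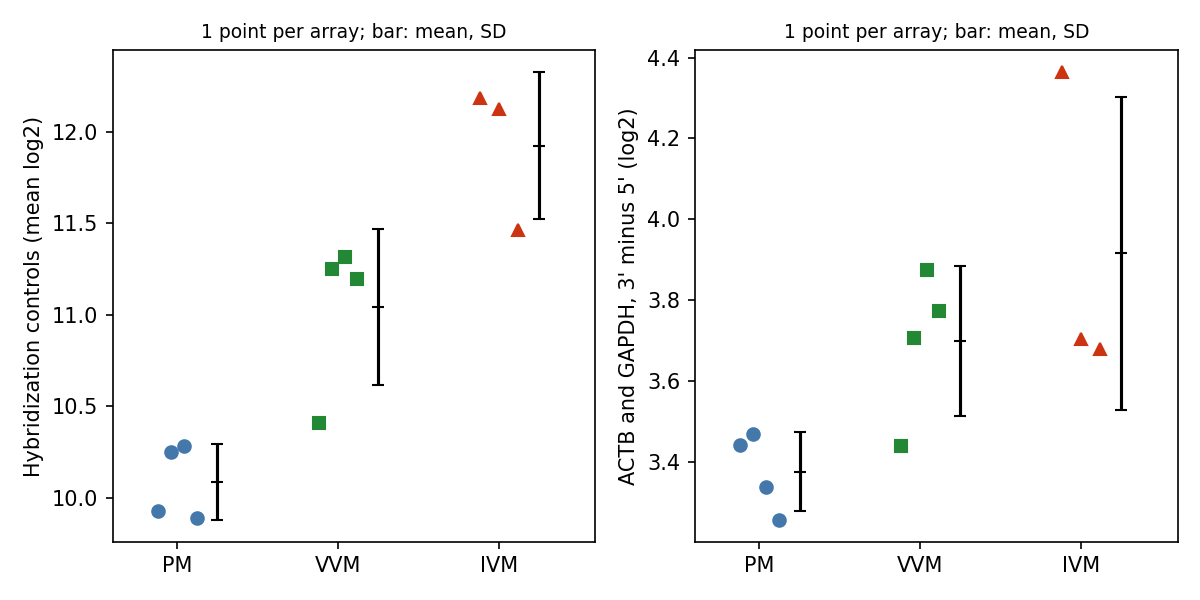
Technical controls of the 11 arrays by group (PM, VVM, IVM), with 1 point per array and a bar for the mean and SD. The hybridization control mean, in log2 intensity, was 11.46 to 12.18 in IVM, above all PM and VVM arrays, while the 3' minus 5' difference (log2) overlapped between IVM and VVM.

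The genes above and below the range differed in how far they lay from it. The median contrast was 0.67 over the 1178 genes called above the range and -1.15 over the 816 called below it, against 0.09 over all genes. Contrasts of at least 2-fold were called for 257 higher and 499 lower genes outside the range. Over all genes, within the range or outside it, the counts were 379 higher and 974 lower. The distance between the nearest IVM array and the nearest in vivo array had a median of 0.14 above and 0.25 below the range, and was 1 or more on the log2 scale for 27 genes above and 49 below. The widest was 2.38 for SMAD7 above the range, and 6.60 for the USP14-annotated probe set below it. At the other end, RCAN3 lay above the range by 0.000465 and MRPS14 below it by 0.000201, while PABPC1L at the upper and HNRNPA1 at the lower edge were just inside, at distances of -3.8e-05 and -0.000907. Centring each array on its median left 1434 higher calls in place of 2402, and the share of calls that were higher was 38.0% in place of 53.5%, so the balance of rises and falls depends on the scaling.

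The in vivo array nearest to culture was most often a VVM array, for 813 of the 1178 genes above the range and 577 of the 816 below it, and VVM 3 was nearest more often than any other, for 328 of 1293 genes above and 276 of 844 below. IVM 3 was the IVM array nearest to the in vivo range for 532 genes above and 466 below, and without it 2357 genes lay above the range and 1478 below. The change during in vivo maturation itself was small for most genes above the range: PM and VVM means lay within 0.5 of each other on the log2 scale for 963 of 1178 genes (81.7%) above and 456 of 816 (55.9%) below, against 61.6% of all genes. The range condition itself depends on the PM and VVM values, so these shares describe the genes and are no test.

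**Figure D2:**
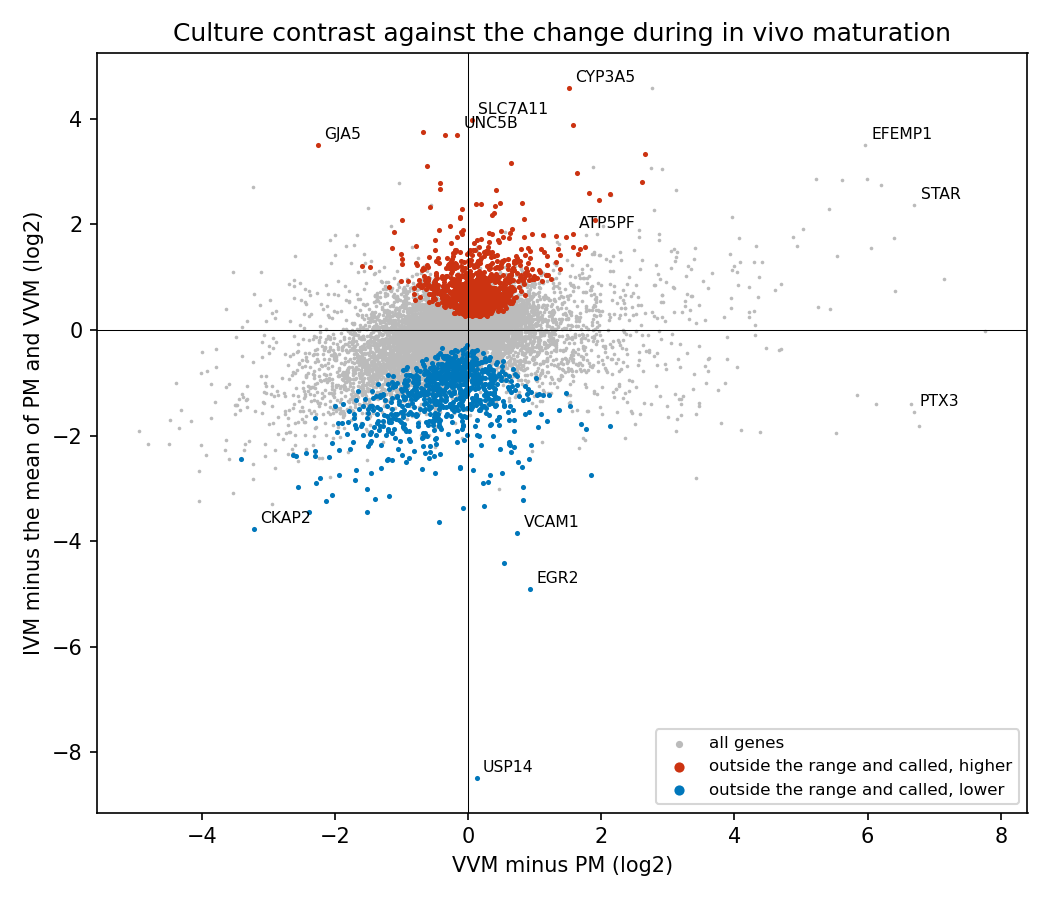
Each point is 1 of 14132 genes, with VVM minus PM on the x axis and IVM minus the mean of PM and VVM on the y axis, both in log2. Genes outside the PM and VVM range and called are coloured, with medians of 0.67 (1178 higher) and -1.15 (816 lower) on the y axis. On the x axis 81.7% of the higher and 55.9% of the lower genes lie within 0.5 of 0, against 61.6% of all genes.

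Genes of amino acid supply stood among the widest rises in culture. SLC7A11 imports cystine in exchange for glutamate. SLC7A11 stood at 6.51, 8.73 and 9.39 in IVM 1 to 3, against 3.67, 5.24, 3.93 and 3.94 in PM 1 to 4 and 4.12, 4.60, 4.47 and 3.84 in VVM 1 to 4. Every IVM value lay above every in vivo value by at least 1.26 and the IVM arrays spread widely, with IVM 1 the lowest. The contrast was 3.98 ± 0.52 (SE; adjusted p = 0.000467), with the IVM mean 16.1-fold above PM and 15.5-fold above VVM, and since both in vivo means lay below the array medians these folds are at best lower bounds. ASNS makes asparagine and is a standard target of ATF4, the transcription factor of amino acid shortage. ASNS stood at 8.90, 10.29 and 11.57 in IVM 1 to 3, against 6.09, 8.11, 6.76 and 6.42 in PM 1 to 4 and 6.66, 5.44, 6.34 and 6.23 in VVM 1 to 4. PM 2 was the highest in vivo array, and no in vivo array reached the lowest IVM array (contrast 3.75 ± 0.53, adjusted p = 0.000757). TRIB3, a pseudokinase induced by the same factor, had a smaller rise of 1.67 ± 0.18 (adjusted p = 0.000195), seen in 1 of its 2 probe sets, and the IVM mean was 3.76-fold above PM and 2.71-fold above VVM. ATF5, a related transcription factor, was higher by 0.55 ± 0.13 (adjusted p = 0.0106), a call lost without IVM 2 (0.42).

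The amino acid response list as a whole had 22 measured members, of which 7 were called higher and 1 lower, against 17.0% and 14.8% of all genes. Above the range lay 3, and the median contrast was 0.37, against 0.09 for all genes. The list's median IVM minus PM was 0.14, against 0.12 for all genes, and its median IVM minus VVM 0.53, against 0.08. Its mean was 8.66 to 9.37 in IVM, 8.38 to 8.87 in PM and 8.42 to 8.63 in VVM, so IVM and PM overlapped. Of the members that moved without leaving the range, PHGDH, which opens serine synthesis, was at 10.55 ± 1.24 in IVM, 9.59 ± 0.19 in PM and 7.92 ± 0.43 in VVM, so IVM lay above both in vivo means while VVM was lower than PM (VVM minus PM -1.66, adjusted p = 0.0107; contrast 1.80 ± 0.40, adjusted p = 0.00778). ATF4 itself had a contrast of -0.50 ± 0.18 (adjusted p = 0.0629), and DDIT3, another of its targets, one of 0.42 ± 0.39 (adjusted p = 0.431). The 7 called higher became 4 after median centring of the arrays, 2 with PM and VVM as 1 group, 4 without PM 1, VVM 2 and VVM 3 and 3 without IVM 2. The 3 above the range became 5 without IVM 1. Among the 21 amino acid transporters 4 were called higher and 1 lower, against 17.0% and 14.8% of all genes. Their median was 0.14, which turned to -0.02 under cyclic loess scaling. SLC1A4, a carrier of neutral amino acids, was at 10.68 ± 0.56 in IVM, 9.32 ± 0.26 in PM and 9.09 ± 0.66 in VVM (contrast 1.47 ± 0.30, adjusted p = 0.00587), but 1 of its 4 probe sets gave that call. SLC7A5, a large neutral amino acid carrier, was higher by 0.55 ± 0.14 (adjusted p = 0.0147). SLC38A4, another amino acid carrier, lay below the range (contrast -1.44 ± 0.39, adjusted p = 0.0216). Its call was lost without any 1 of 3 arrays (IVM 1, IVM 2 or IVM 3, at -1.44 to -1.42).

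Cytosolic tRNA synthetases, which load amino acids onto tRNA, had 6 of 11 measured members called higher and 0 lower, against 17.0% and 14.8% of all genes. At an unadjusted limma p under 0.05 there were also 0 lower. Of the 6, 3 lay above the range, and the list's median contrast was 0.55. Its median IVM minus PM was 0.17, against 0.12 for all genes, and its median IVM minus VVM 0.82, against 0.08. The list's mean was 9.92 to 10.50 in IVM, 9.89 to 10.05 in PM and 9.35 to 9.50 in VVM, so IVM and PM overlapped. YARS1, the tyrosine enzyme, gave the largest difference. YARS1 stood at 10.41, 10.81 and 11.14 in IVM 1 to 3, against 8.93, 9.39, 9.31 and 9.16 in PM 1 to 4 and 9.63, 9.35, 9.76 and 9.16 in VVM 1 to 4. All 3 IVM values exceeded all 8 in vivo values, and PM and VVM overlapped (contrast 1.45 ± 0.17, adjusted p = 0.000328). VARS1, the valine enzyme, was at 8.91 ± 0.38 in IVM, 8.07 ± 0.15 in PM and 7.08 ± 0.16 in VVM, with VVM lower than PM (VVM minus PM -0.99, adjusted p = 0.000881) and IVM above both (contrast 1.34 ± 0.15, adjusted p = 0.000262). WARS1, the tryptophan enzyme, was higher by 0.95 ± 0.18 (adjusted p = 0.00344). MARS1 was called at 0.65 ± 0.17 (adjusted p = 0.0182) within the range, and not without IVM 3 (0.41). The 6 called higher became 3 with PM and VVM as 1 group. The 3 above the range became 5 under quantile normalization, 5 under cyclic loess, 5 without PM 4 and 5 without IVM 1.

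Of the genes that act on TGF-beta and BMP signals inside the cell, SMAD7 and SMAD6 rose in culture, while SMAD4, SMAD3 and TGIF1 fell. SMAD7 blocks activated receptors of the TGF-beta and BMP families. SMAD7 stood at 9.26, 9.59 and 9.25 in IVM 1 to 3, against 6.10, 5.36, 5.07 and 6.87 in PM 1 to 4 and 5.22, 5.61, 5.55 and 5.65 in VVM 1 to 4. The 3 IVM arrays lay close to each other and the nearest in vivo array, PM 4, was 2.38 lower (contrast 3.69 ± 0.30, adjusted p = 5.62e-05; 11.4-fold above PM and 14.5-fold above VVM). SMAD6 acts mainly on BMP signals and was higher in culture as well. SMAD6 was at 8.94, 9.33 and 7.14 in IVM 1 to 3, against 5.02, 4.44, 4.53 and 5.94 in PM 1 to 4 and 5.58, 4.69, 6.12 and 6.13 in VVM 1 to 4. IVM 3 came nearest to the in vivo arrays, and PM and VVM overlapped. The contrast was 3.16 ± 0.48 (adjusted p = 0.00112), called in both probe sets of the gene. FSTL3, a secreted activin antagonist, was at 11.68 ± 0.16 in IVM, 9.52 ± 0.60 in PM and 10.15 ± 0.17 in VVM (contrast 1.84 ± 0.24, adjusted p = 0.000433). SMAD4, the partner shared by all signal-carrying SMADs, was at 5.49 ± 0.68 in IVM, 7.92 ± 0.33 in PM and 6.81 ± 0.38 in VVM (contrast -1.88 ± 0.27, adjusted p = 0.000871), a call made by 1 of its 2 probe sets. SMAD3, which carries activin and TGF-beta signals, was lower by 0.85 (contrast -0.85 ± 0.19, adjusted p = 0.00888). TGIF1, a repressor that binds SMAD complexes, stood at 7.76 ± 0.30 in IVM, 10.47 ± 0.20 in PM and 8.99 ± 0.24 in VVM (contrast -1.96 ± 0.16, adjusted p = 5.36e-05). Over the 36 measured members of the list 9 were called higher and 8 lower, against 17.0% and 14.8% of all genes, so calls went both ways. Above the range lay 3 and below it 4, and the median was -0.09. The 9 called higher became 3 with PM and VVM as 1 group and 5 with the 3' to 5' difference as a covariate. The 8 called lower became 2 with PM and VVM as 1 group and 4 with the 3' to 5' difference as a covariate. The 3 above the range became 5 without IVM 1 and 5 without IVM 3. The 4 below the range became 8 without IVM 3. BMPER, a secreted BMP-binding protein, was called higher (contrast 2.71 ± 0.43, adjusted p = 0.00145) but stayed inside the range, at 7.42 ± 1.14 in IVM, 6.33 ± 0.47 in PM and 3.10 ± 0.63 in VVM.

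The other genes among the 15 widest rises were of many kinds. CYP3A5, a cytochrome P450 that oxidizes steroids and drugs, had the largest contrast of the named genes that rose outside the range. CYP3A5 read 10.16, 8.05 and 9.01 in IVM 1 to 3, against 3.80, 3.90, 3.78 and 3.49 in PM 1 to 4 and 5.27, 5.08, 5.71 and 4.94 in VVM 1 to 4. PM, VVM and IVM did not overlap at all, in that order, and the contrast was 4.58 ± 0.34 (adjusted p = 4.01e-05), called in 3 of its 3 probe sets. The position of CYP3A5 depends on the probe set: 2 of the 3 lay above the range, and without those that can cross-hybridize its contrast was 1.54, called but within the range. The IVM mean was 40.4-fold above PM and 14.1-fold above VVM, again at best a lower bound, because the in vivo means lay below the array medians. UNC5B, a netrin receptor, had close in vivo values and was higher in culture. UNC5B stood at 8.97, 11.08 and 11.27 in IVM 1 to 3, against 7.06, 6.74, 6.50 and 6.97 in PM 1 to 4 and 6.50, 6.78, 6.58 and 6.76 in VVM 1 to 4. IVM 1 to 3 lay above all in vivo arrays, which differed little (VVM minus PM -0.16; contrast 3.70 ± 0.38, adjusted p = 0.000156). SPON2, a secreted matrix protein, was higher in VVM than in PM (VVM minus PM 1.58, adjusted p = 0.0122) and higher again in culture. SPON2 stood at 12.68, 12.82 and 12.001 in IVM 1 to 3, against 7.68, 7.84, 7.85 and 7.91 in PM 1 to 4 and 10.72, 8.32, 8.9998 and 9.55 in VVM 1 to 4. PM, VVM and IVM followed each other with no overlap. Its contrast was 3.89 ± 0.38 (adjusted p = 0.000125), and IVM lay 25.7-fold above PM and 8.61-fold above VVM. PCK1, the cytosolic enzyme that opens gluconeogenesis, was low in both in vivo states. PCK1 registered 6.28, 6.93 and 8.27 in IVM 1 to 3, against 3.63, 3.85, 4.28 and 5.66 in PM 1 to 4 and 3.70, 3.85, 3.96 and 3.44 in VVM 1 to 4. PM 4 came within 0.63 of the lowest IVM array (contrast 3.11 ± 0.44, adjusted p = 0.000771).

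GJA5 encodes connexin 40, a gap junction protein. GJA5 stood at 11.31, 10.64 and 12.15 in IVM 1 to 3, against 8.50, 9.77, 8.35 and 9.32 in PM 1 to 4 and 7.78, 5.40, 5.93 and 7.81 in VVM 1 to 4. Here the in vivo states differed in the other direction, with VVM minus PM at -2.25 ± 0.57 (adjusted p = 0.0117), while IVM lay above both (contrast 3.51 ± 0.55, adjusted p = 0.0013). ERBB3, a receptor for neuregulins, stood at 8.47 ± 1.15 in IVM, 6.24 ± 0.58 in PM and 6.14 ± 0.69 in VVM, with IVM 3 (9.79) well above IVM 1 and 2 (7.75 and 7.88) (contrast 2.28 ± 0.46, adjusted p = 0.00493). KCNK3, a background potassium channel, was at 10.53 ± 0.39 in IVM, 7.88 ± 0.39 in PM and 8.36 ± 0.40 in VVM (contrast 2.41 ± 0.24, adjusted p = 0.000124). TESC, a calcium-binding protein, was at 11.76 ± 0.37 in IVM, 9.27 ± 0.36 in PM and 9.47 ± 0.92 in VVM (contrast 2.39 ± 0.37, adjusted p = 0.00121). ST8SIA5, a sialyltransferase, and CRYGC, a lens crystallin, were higher by 2.78 ± 0.22 and 2.67 ± 0.24 (adjusted p = 5.36e-05 and 8.36e-05). KRT19, an intermediate filament protein of simple epithelia, was at 10.49 ± 1.05 in IVM, 8.06 ± 0.52 in PM and 8.17 ± 0.46 in VVM (contrast 2.38 ± 0.39, adjusted p = 0.00174), called in all 3 of its probe sets. KRT19 is also a marker of ovarian surface epithelium. Of the 11 measured markers of that list 4 were called higher and 0 lower, against 17.0% and 14.8% of all genes. At an unadjusted limma p under 0.05 these were 5 and 0, and with the 3' to 5' difference as a covariate 1 was called higher. KRT19 and UPK3B lay above the range, and the list's mean was 6.55 to 6.90 in IVM, 6.04 to 6.20 in PM and 6.28 to 6.49 in VVM. Of the 11 contrasts of the list 10 were above 0 and 1 below. EPCAM and CDH1 had group means between 4.21 and 5.10, below the array medians. The part of surface epithelium cells in the KRT19 result was not tested.

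**Figure D3:**
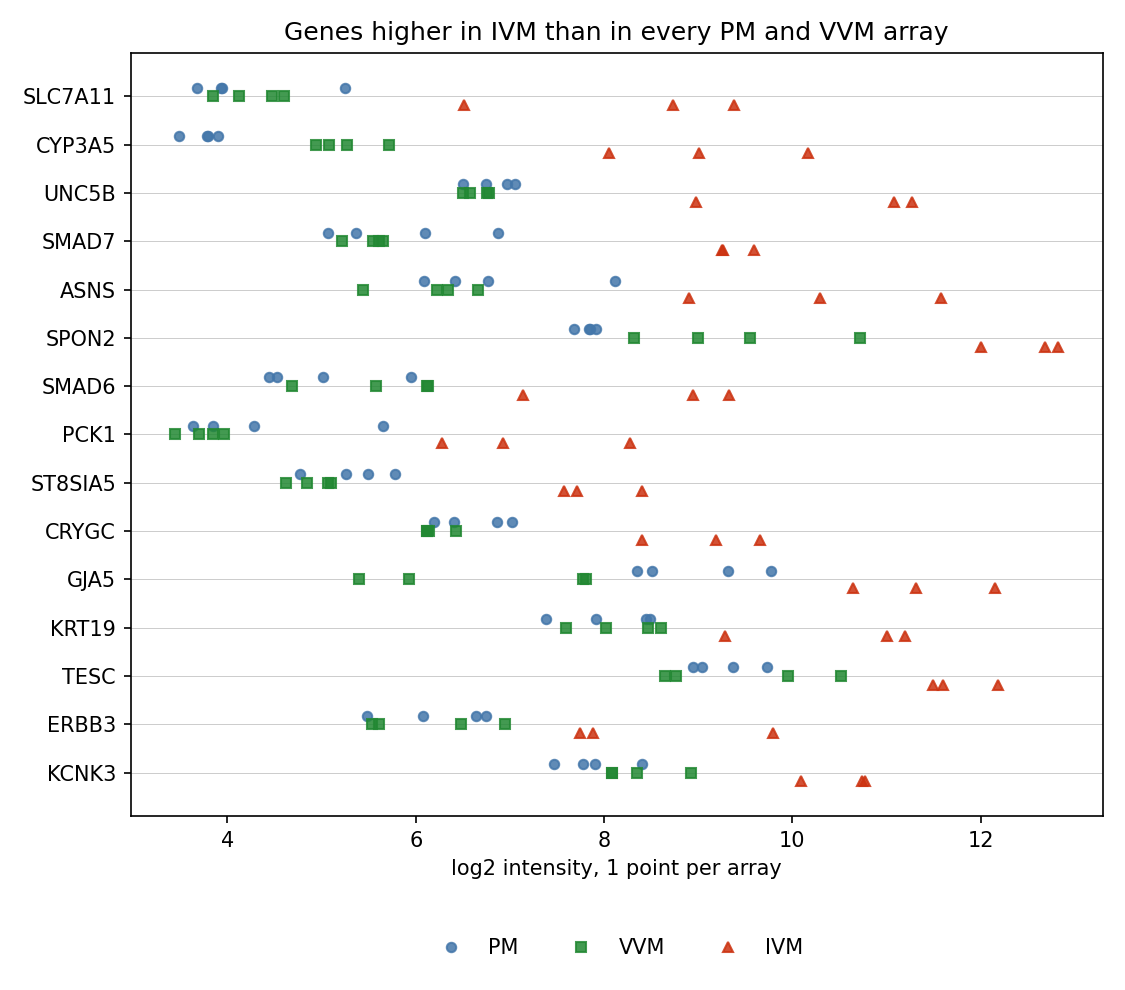
Log2 intensity of the 15 named genes with the widest rises, 1 point per array (circles PM, squares VVM, triangles IVM). For each gene all 3 IVM points lie to the right of all 8 in vivo points, by 2.38 for SMAD7 and 0.63 for PCK1, and GJA5 and CYP3A5 also differ between PM and VVM.

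Of 14 measured genes of steroid synthesis 6 were called higher and 0 lower (9 and 0 at an unadjusted limma p under 0.05), against 17.0% and 14.8% of all genes. Of the 6, 4 lay above the range, and the list's median contrast was 0.62. HSD3B2 makes progesterone from pregnenolone. HSD3B2 stood at 13.27, 12.65 and 12.49 in IVM 1 to 3, against 10.56, 9.96, 11.05 and 11.38 in PM 1 to 4 and 9.58, 11.05, 11.07 and 10.74 in VVM 1 to 4. The IVM arrays lay at least 1.11 above the in vivo range, and the IVM mean was 4.19-fold above PM and 4.57-fold above VVM (contrast 2.13 ± 0.36, adjusted p = 0.00184). NR5A1, the transcription factor SF-1 that drives steroidogenic genes, was at 8.11 ± 0.13 in IVM, 7.12 ± 0.30 in PM and 7.45 ± 0.19 in VVM (contrast 0.82 ± 0.15, adjusted p = 0.0029). FDXR, which passes electrons to mitochondrial P450 enzymes, was higher by 0.88 ± 0.22 (adjusted p = 0.014). TSPO, an outer mitochondrial membrane protein linked to cholesterol import, was called at 0.96 ± 0.24 (adjusted p = 0.0133) and not without IVM 2 (0.92). STAR, which delivers cholesterol to the inner mitochondrial membrane, was called (contrast 2.37 ± 0.54, adjusted p = 0.00897, lost without IVM 1 (1.99)) at 12.03 ± 0.74 in IVM, 6.31 ± 1.32 in PM and 13.01 ± 0.44 in VVM, so that IVM lay between the in vivo groups. CYP19A1, the aromatase, had a contrast of 0.93 ± 0.36 that was not called (adjusted p = 0.0777). The 6 called higher became 3 with PM and VVM as 1 group and 2 with the 3' to 5' difference as a covariate. With the most variable probe set 5 of the 14 were called higher and 1 lower, with 3 above and 1 below the range. With the mean of the probe sets of a gene 5 were called higher and 1 lower, with 4 above and 1 below the range, and the median was 0.33. The progesterone receptor gene PGR, whose product is needed for ovulation, was outside the range as well. PGR stood at 7.49, 7.06 and 7.18 in IVM 1 to 3, against 5.52, 5.94, 5.74 and 4.90 in PM 1 to 4 and 6.005, 5.33, 5.69 and 6.25 in VVM 1 to 4. The 8 in vivo arrays overlapped between PM and VVM, and the IVM mean was 3.28-fold above PM and 2.68-fold above VVM (contrast 1.57 ± 0.23, adjusted p = 0.000957).

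Fatty acid synthesis genes rose in part. FASN, the fatty acid synthase, was at 10.27 ± 0.10 in IVM, 9.19 ± 0.26 in PM and 8.72 ± 0.30 in VVM (contrast 1.32 ± 0.16, adjusted p = 0.000358). SREBF1, the transcription factor that drives FASN, was at 10.47 ± 0.47 in IVM, 9.30 ± 0.40 in PM and 9.04 ± 0.24 in VVM (contrast 1.30 ± 0.22, adjusted p = 0.00216), called in 2 of its 3 probe sets. FADS2, a desaturase, was called at 0.72 ± 0.19 (adjusted p = 0.0183), but not without IVM 2 (0.72) or IVM 3 (0.65). HADHA, of mitochondrial fatty acid oxidation, lay below the range (contrast -0.49 ± 0.12, adjusted p = 0.0112), a call lost without IVM 1 (-0.42). Of 23 measured members 6 were called higher and 2 lower, against 17.0% and 14.8% of all genes, with a median of 0.21. The 6 called higher became 2 with PM and VVM as 1 group, 3 with the 3' to 5' difference as a covariate and 3 without IVM 3. In the cholesterol list 1 of 16 was called higher and 3 lower, against the same shares of all genes. The 3 called lower became 1 under quantile normalization, 1 with the mean of the probe sets of a gene, 1 with PM and VVM as 1 group, 1 without PM 1, VVM 2 and VVM 3 and 1 without IVM 2. The 1 below the range became 4 without IVM 1. It was DHCR7, the last enzyme of the pathway, at 7.09 ± 0.49 in IVM, 8.48 ± 0.62 in PM and 9.10 ± 0.53 in VVM (contrast -1.70 ± 0.33, adjusted p = 0.00389), and MVK, mevalonate kinase, lay above the range (contrast 0.50 ± 0.12, adjusted p = 0.0121), a call lost without IVM 2 (0.38).

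Antioxidant genes that NRF2 controls were among the lists with the largest share above the range, 7 of 21 measured members, of which 6 were called, and 0 members lay below it. The 7 above the range became 4 after median centring of the arrays, and 4 of 18 without probe sets that can cross-hybridize. SRXN1 repairs oxidized peroxiredoxins. SRXN1 stood at 9.76, 9.70 and 9.50 in IVM 1 to 3, against 7.75, 7.99, 7.78 and 8.02 in PM 1 to 4 and 8.71, 8.62, 9.06 and 8.01 in VVM 1 to 4. No in vivo array reached the IVM arrays, and the VVM mean lay above the PM mean (contrast 1.41 ± 0.18, adjusted p = 0.000448). EPHX1, a microsomal epoxide hydrolase, was at 8.30 ± 0.26 in IVM, 7.09 ± 0.39 in PM and 6.78 ± 0.30 in VVM (contrast 1.36 ± 0.20, adjusted p = 0.000974). TALDO1, an enzyme of the pentose phosphate pathway, was at 12.49 ± 0.18 in IVM, 11.37 ± 0.15 in PM and 11.54 ± 0.08 in VVM (contrast 1.03 ± 0.11, adjusted p = 0.000167). PIR and ABCC2, an iron-binding nuclear protein and an export pump, were higher by 0.84 ± 0.14 and 0.56 ± 0.11 (adjusted p = 0.00194 and 0.00372). MGST1, a glutathione transferase, was called at 1.27 ± 0.42 (adjusted p = 0.0447), a call lost without any 1 of 8 arrays (PM 1, PM 2, PM 3, IVM 1, IVM 2, IVM 3, VVM 3, VVM 4; 1.09 to 1.45). SOD1 lay above the range without a call (contrast 0.32 ± 0.11, adjusted p = 0.0561), and SOD2, the mitochondrial superoxide dismutase, was lower than the in vivo mean and within the range, at 9.37 ± 0.54 in IVM, 9.83 ± 0.20 in PM and 11.37 ± 0.55 in VVM (contrast -1.23 ± 0.27, adjusted p = 0.00756). MT3, a metallothionein, was the 1 metal-handling gene of 13 outside the range (7.69%, against 15.1% of all genes). It was at 12.18 ± 0.52 in IVM, 10.77 ± 0.51 in PM and 10.58 ± 0.70 in VVM (contrast 1.51 ± 0.35, adjusted p = 0.00966).

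Of 23 measured subunits of the respiratory chain and ATP synthase, 8 were called higher and 2 lower, against 17.0% and 14.8% of all genes. Above the range lay 7 and below it 1, and the median contrast was 0.19. Without probe sets that can cross-hybridize, 4 of 22 lay above the range. ATP5PF, a subunit of the stalk of ATP synthase, had the largest contrast of them. ATP5PF stood at 12.24, 12.16 and 12.22 in IVM 1 to 3, against 9.67, 9.34, 10.01 and 9.38 in PM 1 to 4 and 11.20, 11.09, 11.57 and 10.81 in VVM 1 to 4. The groups did not overlap, in the order PM, VVM and IVM (contrast 1.82 ± 0.17, adjusted p = 9.63e-05). ATP5MC1, a membrane ring subunit of the same enzyme, was at 11.17 ± 0.06 in IVM, 10.03 ± 0.25 in PM and 10.14 ± 0.28 in VVM (contrast 1.08 ± 0.15, adjusted p = 0.000759). ATP5PO, SDHB and ATP5F1C were higher by 0.86 ± 0.14, 0.75 ± 0.15 and 0.58 ± 0.14 (adjusted p = 0.00145, 0.00554 and 0.013). NDUFA2 and NDUFA4, listed with complex I and the cytochrome oxidase step, were called at 0.83 ± 0.20 and 0.65 ± 0.17 (adjusted p = 0.012 and 0.0177), the former lost without IVM 2 (0.62) and turned to -0.0026 without probe sets that can cross-hybridize, and the latter without IVM 1 (0.60) or IVM 2 (0.67). ATP5F1B, the catalytic subunit of the synthase, went the other way, at 10.46 ± 0.53 in IVM, 11.90 ± 0.12 in PM and 11.48 ± 0.26 in VVM (contrast -1.24 ± 0.20, adjusted p = 0.00141), in both of its probe sets. The 8 called higher became 5 with the 3' to 5' difference as a covariate and 5 without IVM 2.

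Of 36 measured genes of the extracellular matrix and its proteases 12 were called higher and 3 lower, against 17.0% and 14.8% of all genes. Their median contrast was 0.19, with a median IVM minus PM of 0.30 and IVM minus VVM of 0.02. Above the range lay 5 of the 36 and below it none, against 9.15% and 5.97% of all genes. FN1, fibronectin, had the widest gap of them. FN1 stood at 13.14, 13.42 and 13.30 in IVM 1 to 3, against 11.47, 11.65, 11.24 and 11.09 in PM 1 to 4 and 11.77, 10.63, 12.50 and 12.33 in VVM 1 to 4. IVM stood clear of both in vivo groups (contrast 1.70 ± 0.32, adjusted p = 0.00341), and the IVM mean was 3.79-fold above PM and 2.78-fold above VVM. LAMB1, a laminin chain, was at 8.07 ± 0.65 in IVM, 5.02 ± 0.34 in PM and 6.93 ± 0.42 in VVM, with VVM minus PM at 1.90 (adjusted p = 0.0006; contrast 2.09 ± 0.28, adjusted p = 0.000518). MMP14, a membrane metalloproteinase, and PLAU, the urokinase, were higher by 0.62 ± 0.09 and 0.54 ± 0.12 (adjusted p = 0.000771 and 0.00781). LUM, lumican, passed at 0.48 ± 0.10 (adjusted p = 0.00705) from group means of 3.74 in PM, 4.06 in IVM and 3.41 in VVM, all below the array medians. CD44, the hyaluronan receptor of expanding cumulus cells, was at 5.80 ± 0.46 in IVM, 4.67 ± 0.22 in PM and 5.21 ± 0.12 in VVM (contrast 0.86 ± 0.17, adjusted p = 0.00518). The 12 called higher became 3 with PM and VVM as 1 group. The 3 called lower became 6, and the 5 above the range 3, with the most variable probe set or the mean of the probe sets, and 3 lay above the range under cyclic loess. Below the range, where there had been none, lay 3 with the most variable probe set and 1 with the mean of the probe sets. Without probe sets that can cross-hybridize 1 lay below it as well, and 6 above. Of 12 endothelial markers 3 were called higher, against 17.0% of all genes, and 1 without IVM 1, after median centring of the arrays or under cyclic loess. Those above the range were ENG with a contrast of 1.43 ± 0.14 (adjusted p = 0.000107) and CDH5 of 0.38 ± 0.11 (adjusted p = 0.028; not called without IVM 1 or IVM 2, at 0.36 and 0.34). Of 10 theca and stroma markers 3 were called higher, and 1 with the 3' to 5' difference as a covariate. The mean of the endothelial list was 5.83 to 5.99 in IVM, 5.43 to 5.47 in PM and 5.66 to 6.16 in VVM. Of its 12 contrasts 9 were above 0 and 3 below, and KDR had group means of 3.64, 3.68 and 3.76 in PM, IVM and VVM. The theca and stroma list lay at 5.89 to 6.49, 5.62 to 5.97 and 6.05 to 6.45 in IVM, PM and VVM. The part of endothelial, theca and stroma cells in the matrix results was not tested.

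The clearest group among the genes below the range was the immediate early genes, transcription factors and regulators that cells switch on within minutes of a hormone or growth factor. Of 19 measured members 13 were called lower and 0 higher (15 and 0 at an unadjusted limma p under 0.05), against 14.8% and 17.0% of all genes. Below the range lay 8 (7 of them called), and the median contrast was -1.24. EGR2, a zinc finger factor, had the largest contrast of them. EGR2 stood at 7.02, 4.38 and 6.27 in IVM 1 to 3, against 10.63, 9.07, 10.73 and 10.91 in PM 1 to 4 and 10.91, 11.41, 11.67 and 11.11 in VVM 1 to 4. The highest IVM array lay 2.05 under the lowest in vivo array, PM 2, and the IVM mean was 21.8-fold below PM and 41.7-fold below VVM (contrast -4.91 ± 0.51, adjusted p = 0.000155), in 1 of its 2 probe sets. KLF6, a Krüppel-like factor, had narrow groups. KLF6 stood at 10.06, 9.47 and 9.14 in IVM 1 to 3, against 12.39, 12.08, 12.47 and 12.42 in PM 1 to 4 and 12.50, 12.61, 12.75 and 12.42 in VVM 1 to 4. PM and VVM overlapped and all IVM arrays lay at least 2.02 lower (contrast -2.90 ± 0.17, adjusted p = 1.42e-05), in 5 of its 6 probe sets, and KLF6 kept its call with the hybridization control level as a covariate (-3.37 ± 0.37, adjusted p = 0.027). KLF4 was at 6.54 ± 1.55 in IVM, 9.75 ± 0.46 in PM and 9.99 ± 1.13 in VVM, with 1 IVM array close to the in vivo range (contrast -3.33 ± 0.62, adjusted p = 0.00325, 1 of its 2 probe sets).

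The orphan nuclear receptors NR4A1 and NR4A2, early targets of the gonadotropin signal in granulosa cells, both fell. NR4A1 stood at 9.09, 8.90 and 9.29 in IVM 1 to 3, against 11.94, 11.59, 11.50 and 12.26 in PM 1 to 4 and 10.61, 11.62, 11.43 and 11.28 in VVM 1 to 4. The VVM mean lay between those of PM and IVM, and the IVM mean was 6.61-fold below PM and 4.4-fold below VVM (contrast -2.43 ± 0.22, adjusted p = 7.39e-05). NR4A2 was at 8.76 ± 0.17 in IVM, 11.30 ± 0.28 in PM and 10.43 ± 0.24 in VVM (contrast -2.11 ± 0.16, adjusted p = 4.12e-05), called in all 5 of its probe sets. IER2 was at 10.27 ± 0.45 in IVM, 12.58 ± 0.47 in PM and 11.96 ± 0.45 in VVM (contrast -1.998 ± 0.27, adjusted p = 0.000584), and KLF2 at 7.23 ± 0.52 in IVM, 8.08 ± 0.46 in PM and 9.44 ± 0.51 in VVM (contrast -1.52 ± 0.29, adjusted p = 0.00386). EGR4 lay below the range without a call (contrast -0.63 ± 0.26, adjusted p = 0.0868). FOS, a component of the AP-1 factor, and MYC were called lower inside the range, at -1.83 ± 0.51 and -1.24 ± 0.40 (adjusted p = 0.0224 and 0.0398). The call of FOS was lost without IVM 2 (-1.32) or IVM 3 (-1.79), and that of MYC without any 1 of 7 arrays, all but PM 2, VVM 1, VVM 2 and VVM 4 (-1.40 to -0.95). DUSP1, ZFP36 and BTG2, which are also induced early, had contrasts of 0.27 ± 0.23, 0.09 ± 0.43 and 0.08 ± 0.20, none of them called (adjusted p = 0.409, 0.889 and 0.784). Of the 13 calls, 9 were also made without PM 1, VVM 2 and VVM 3, 8 with PM and VVM as 1 group, and 1 with the hybridization control level as a covariate.

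**Figure D4:**
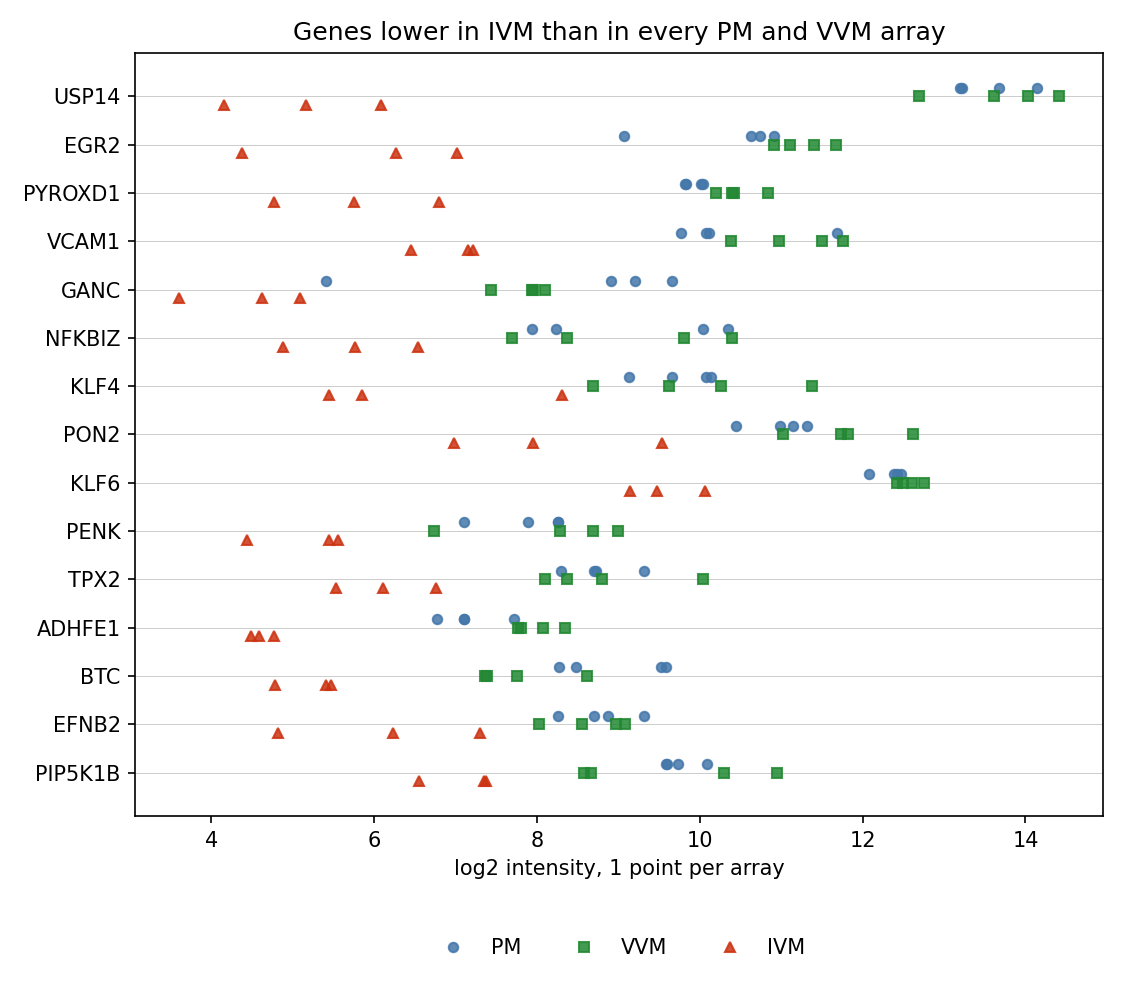
Log2 intensity of the 15 named genes with the widest falls, 1 point per array (circles PM, squares VVM, triangles IVM). For each gene all 3 IVM points lie to the left of all 8 in vivo points, by 2.02 for KLF6 and 0.37 for KLF4, and the symbol USP14 is the annotation's name for a probe set whose identity is in doubt.

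VCAM1, an adhesion molecule for leukocyte integrins, was among the widest falls. VCAM1 stood at 6.46, 7.21 and 7.15 in IVM 1 to 3, against 10.08, 9.77, 11.69 and 10.11 in PM 1 to 4 and 10.97, 11.75, 10.39 and 11.50 in VVM 1 to 4. The IVM arrays lay together, 2.56 below the lowest in vivo array, and the IVM mean was 11.1-fold below PM and 18.6-fold below VVM (contrast -3.84 ± 0.39, adjusted p = 0.00015). BTC is betacellulin, an EGF-like ligand of the ovulatory relay. BTC stood at 4.79, 5.48 and 5.41 in IVM 1 to 3, against 9.52, 8.49, 8.28 and 9.58 in PM 1 to 4 and 8.61, 7.38, 7.76 and 7.37 in VVM 1 to 4. PM lay above VVM with little overlap and IVM below both (contrast -3.15 ± 0.34, adjusted p = 0.000195), in 1 of its 2 probe sets. EFNB2, the ligand ephrin-B2, was at 6.12 ± 1.24 in IVM, 8.79 ± 0.44 in PM and 8.66 ± 0.48 in VVM (contrast -2.61 ± 0.43, adjusted p = 0.00167), in 1 of its 2 probe sets. PENK, which encodes the enkephalin precursor, was at 5.15 ± 0.62 in IVM, 7.88 ± 0.54 in PM and 8.18 ± 1.01 in VVM (contrast -2.88 ± 0.44, adjusted p = 0.00121), in 1 of its 2 probe sets. CXCR4, the receptor for CXCL12, was at 6.37 ± 0.19 in IVM, 8.50 ± 0.65 in PM and 7.74 ± 0.81 in VVM (contrast -1.76 ± 0.37, adjusted p = 0.00658). NFKBIZ, a nuclear regulator of NF-kappaB targets, was at 5.73 ± 0.83 in IVM, 9.14 ± 1.23 in PM and 9.07 ± 1.25 in VVM (contrast -3.37 ± 0.66, adjusted p = 0.00426, 1 of its 2 probe sets). In the list of inflammatory cytokines and receptors 3 of 26 were called higher and 2 lower, VCAM1 and CXCR4. Called in either direction were 19.2% of that list, fewer than the 31.8% of all genes (17.0% higher and 14.8% lower). The list's median contrast was -0.02, against 0.09 for all genes.

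IRF1, an interferon-induced transcription factor, lay below the range. IRF1 stood at 6.19, 6.61 and 6.18 in IVM 1 to 3, against 8.67, 8.98, 10.13 and 8.999 in PM 1 to 4 and 7.61, 9.36, 8.69 and 7.55 in VVM 1 to 4. Both in vivo groups spread widely, and all IVM arrays lay under them (contrast -2.42 ± 0.39, adjusted p = 0.00159). OAS1, an antiviral enzyme, was at 8.50 ± 0.30 in IVM, 10.48 ± 0.54 in PM and 11.12 ± 0.55 in VVM (contrast -2.31 ± 0.29, adjusted p = 0.00041), in 1 of its 5 probe sets. BST2, another interferon-induced gene, went the other way, at 12.33 ± 0.26 in IVM, 10.85 ± 0.37 in PM and 11.55 ± 0.11 in VVM (contrast 1.13 ± 0.17, adjusted p = 0.00111). The interferon list had 4 of 21 called higher and 2 lower, against 17.0% and 14.8% of all genes. Its median of -0.03 changed sign to 0.02 under quantile normalization. The 4 called higher became 2 with PM and VVM as 1 group, 1 with the 3' to 5' difference as a covariate, 2 without IVM 1 and 7 without IVM 3. The leukocyte markers, 0 of 18 of which were called by limma (2 higher and 1 lower at an unadjusted p under 0.05), were higher in some VVM arrays than in any IVM array, as given above, and their part in the levels of VCAM1, CXCR4, IRF1 and OAS1 was not tested.

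Of 21 measured chaperones and folding enzymes 5 lay below the range and 1 above it, against 5.97% and 9.15% of all genes. Of the 21, 5 were called lower and 3 higher, against 14.8% and 17.0%. The 3 called higher became 5 with the most variable probe set, 1 with the 3' to 5' difference as a covariate and 1 without IVM 1. The 5 called lower became 3 with PM and VVM as 1 group. The 5 below the range became 3 with the mean of the probe sets of a gene. The 1 above the range became 3 without IVM 3. DNAJB1, the co-chaperone of the heat shock protein HSP70, was at 10.04 ± 0.35 in IVM, 11.44 ± 0.43 in PM and 11.34 ± 0.35 in VVM (contrast -1.35 ± 0.23, adjusted p = 0.00205), in both of its probe sets. DNAJB4 was at 4.72 ± 0.59 in IVM, 6.37 ± 0.40 in PM and 5.88 ± 0.12 in VVM (contrast -1.40 ± 0.23, adjusted p = 0.00189). HSF2, a heat shock transcription factor, was at 6.39 ± 0.45 in IVM, 9.20 ± 0.37 in PM and 6.90 ± 0.16 in VVM, with VVM minus PM at -2.31 (adjusted p = 3.11e-05; contrast -1.66 ± 0.21, adjusted p = 0.000375). PDIA6 and PDIA3, disulfide isomerases of the endoplasmic reticulum, were lower by 1.07 and 0.50 (contrasts -1.07 ± 0.18 and -0.50 ± 0.14, adjusted p = 0.00176 and 0.0213), the latter not called without IVM 2 (-0.46). SDF2L1, of the same compartment, was higher by 1.002 ± 0.22 (adjusted p = 0.00824). HSP90AA1 and HSPA8, the abundant cytosolic chaperones, had contrasts of -0.03 ± 0.12 and 0.13 ± 0.13, neither called (adjusted p = 0.872 and 0.459). PMAIP1, the p53 target NOXA, was the 1 member of 20 in the p53 and apoptosis list outside the range (5%, against 15.1% of all genes). It was at 4.84 ± 0.26 in IVM, 6.65 ± 0.64 in PM and 7.26 ± 0.76 in VVM (contrast -2.12 ± 0.36, adjusted p = 0.00212).

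Several enzymes and lesser known genes completed the widest falls. PON2, an intracellular paraoxonase, stood at 8.16 ± 1.29 in IVM, 10.97 ± 0.38 in PM and 11.80 ± 0.65 in VVM (contrast -3.23 ± 0.46, adjusted p = 0.000764). PYROXD1, an oxidoreductase, was at 5.78 ± 1.01 in IVM, 9.93 ± 0.11 in PM and 10.46 ± 0.27 in VVM (contrast -4.42 ± 0.32, adjusted p = 3.67e-05), in 2 of its 3 probe sets. GANC, a neutral alpha-glucosidase, was low in 1 PM array as well as in culture. GANC stood at 4.63, 3.61 and 5.09 in IVM 1 to 3, against 9.66, 5.41, 9.21 and 8.91 in PM 1 to 4 and 8.10, 7.94, 7.43 and 7.95 in VVM 1 to 4. PM 2 lay far below the other PM arrays, yet above every IVM array (contrast -3.63 ± 0.72, adjusted p = 0.00473), and the call of GANC was lost with the 3' to 5' difference as a covariate. ADHFE1, a mitochondrial alcohol dehydrogenase, was at 4.62 ± 0.15 in IVM, 7.17 ± 0.40 in PM and 8.0002 ± 0.27 in VVM (contrast -2.97 ± 0.19, adjusted p = 1.79e-05), and PIP5K1B, a lipid kinase, at 7.10 ± 0.47 in IVM, 9.75 ± 0.24 in PM and 9.62 ± 1.18 in VVM (contrast -2.59 ± 0.45, adjusted p = 0.00224). MXI1, a MYC antagonist, and CA12, a membrane carbonic anhydrase, were the 2 of 13 hypoxia-list members outside the range, with contrasts of -2.06 ± 0.28 and -1.41 ± 0.29 (adjusted p = 0.000596 and 0.00591). That was 15.4% of the list, close to the 15.1% of all genes. Of the 13, 4 were called lower and 1 higher, against 14.8% and 17.0%. The 2 below the range became 5 with the most variable probe set and 4 with the mean of the probe sets of a gene. SLC2A3, a glucose transporter, lay below the range at 6.86 ± 0.51 in IVM, 7.78 ± 0.20 in PM and 9.48 ± 0.76 in VVM (contrast -1.77 ± 0.32, adjusted p = 0.00278), and GPI, an enzyme of glycolysis, above it (contrast 0.57 ± 0.15, adjusted p = 0.0204), a call lost without IVM 1 (0.53) or IVM 2 (0.51). IRS1 and PIK3R1, which pass on the insulin and IGF signal, were lower, at -1.27 ± 0.40 and -0.95 ± 0.18 (adjusted p = 0.0369 and 0.00333), and the call of IRS1 was lost without any 1 of 7 arrays (PM 3, IVM 1, IVM 2, IVM 3, VVM 1, VVM 2, VVM 4; -1.39 to -1.12).

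The probe set with the widest gap of all carries the symbol USP14, a deubiquitinating enzyme, in the annotation used here, but its name is doubtful. USP14 (as annotated) was at 4.16, 6.09 and 5.16 in IVM 1 to 3, against 14.14, 13.22, 13.20 and 13.68 in PM 1 to 4 and 14.04, 14.41, 12.69 and 13.62 in VVM 1 to 4. The distance from the highest IVM array to the lowest in vivo array was 6.60, and the contrast was -8.49 ± 0.42 (adjusted p = 3.66e-06). All 5 probe sets with that symbol were called lower, with contrasts from -8.53 to -7.35. By its name, 1 of the 5 comes from the same cluster of the array design as the probe set of HBB, the beta globin gene. HBB was at 6.54 ± 0.33 in IVM, 7.53 ± 0.25 in PM and 9.30 ± 0.78 in VVM and lay below the range too (contrast -1.88 ± 0.31, adjusted p = 0.00175), whereas the mean of the 5 erythrocyte markers was 5.09 to 5.44 in IVM, 5.36 to 5.81 in PM and 5.59 to 6.10 in VVM. Which transcript these probe sets measured was not tested.

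Of 27 measured genes of cell division 24 had their highest group mean in PM. Outside the in vivo range in culture lay 14.8% of the 27, close to the 15.1% of all genes. TPX2, which organises the mitotic spindle and is not on that list, was among the 15 widest falls. TPX2 stood at 5.53, 6.11 and 6.77 in IVM 1 to 3, against 8.72, 8.70, 8.30 and 9.31 in PM 1 to 4 and 8.37, 8.80, 8.10 and 10.04 in VVM 1 to 4. Its in vivo groups overlapped, and IVM alone was lower (contrast -2.66 ± 0.38, adjusted p = 0.000852). CKAP2, a spindle protein, was at 6.80 ± 1.46 in IVM, 12.18 ± 0.23 in PM and 8.96 ± 0.22 in VVM (contrast -3.77 ± 0.44, adjusted p = 0.000273, 1 of its 2 probe sets). CCNB2, a mitotic cyclin, was at 7.27 ± 1.01 in IVM, 10.71 ± 0.20 in PM and 9.25 ± 0.27 in VVM, so VVM lay between (contrast -2.71 ± 0.32, adjusted p = 0.000298), and CDC25B, the phosphatase that opens mitosis, at 8.35 ± 0.49 in IVM, 9.82 ± 0.15 in PM and 9.68 ± 0.31 in VVM (contrast -1.40 ± 0.20, adjusted p = 0.000758). Of 27 measured cell cycle genes 12 were called lower and 2 higher, against 14.8% and 17.0% of all genes, with a median of -1.04. Below the range lay 2, CCNB2 and CDC25B, and above it 2, E2F1 and CCND1. E2F1 was called (0.54 ± 0.11, adjusted p = 0.00433) in 1 of its 3 probe sets. Its contrast was -0.88 with the most variable probe set and -0.014 as the mean of its probe sets. CCND1 was not called (0.31 ± 0.11, adjusted p = 0.0534). MKI67, a marker of dividing cells, was at 6.17 ± 0.79 in IVM, 10.09 ± 0.17 in PM and 7.04 ± 0.75 in VVM, and IVM minus VVM was -0.87 (adjusted p = 0.197). With PM and VVM as 1 group the 12 calls became 2. The 2 below the range became 6 without IVM 3 and 4 without VVM 1.

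Many genes of the maturation response were called in the contrast without leaving the in vivo range: where PM and VVM differ, an IVM level near that of VVM still differs from the mean of both. IGFBP3, an IGF-binding protein, was at 11.92 ± 0.49 in IVM, 6.05 ± 0.09 in PM and 12.04 ± 0.66 in VVM (contrast 2.87 ± 0.28, adjusted p = 0.000123), with IVM minus VVM at -0.12 (adjusted p = 0.846). EFEMP1, a matrix glycoprotein, was at 11.15 ± 0.85 in IVM, 4.67 ± 0.82 in PM and 10.63 ± 1.09 in VVM (contrast 3.50 ± 0.54, adjusted p = 0.00124), and TNFAIP6, which cross-links the hyaluronan matrix, at 8.78 ± 0.59 in IVM, 4.58 ± 0.17 in PM and 9.46 ± 1.16 in VVM (contrast 1.76 ± 0.45, adjusted p = 0.0157), a call lost without IVM 1 (1.53). SLC16A1, a lactate and pyruvate carrier, was at 5.80 ± 0.95 in IVM, 10.04 ± 0.18 in PM and 6.44 ± 0.47 in VVM (contrast -2.44 ± 0.33, adjusted p = 0.000593). MMP10, a stromelysin, was an intermediate case: IVM lay above both means, at 9.78 ± 1.25 in IVM, 3.80 ± 0.13 in PM and 6.56 ± 1.54 in VVM (contrast 4.59 ± 0.65, adjusted p = 0.000758), but its IVM and VVM arrays overlapped. Called genes within the range numbered 2493, and with PM and VVM treated as 1 group, where their difference counts as spread, 1570 genes were called in all, 1392 of them among the 1994. The expansion and ovulation list had 9 of 21 called higher and 1 lower, against 17.0% and 14.8% of all genes. PGR and CD44 lay above the range and BTC below it. The 9 called higher became 2 with PM and VVM as 1 group, 5 with the 3' to 5' difference as a covariate and 5 without IVM 1. Glycolysis and lactate transport had 1 of 19 called higher and 9 lower, against 17.0% and 14.8% of all genes (median -0.46). The 9 called lower became 5 under quantile normalization, 5 with array weights, 0 with PM and VVM as 1 group, 4 with the 3' to 5' difference as a covariate, 5 without IVM 1 and 5 without IVM 3. In the fit with PM and VVM as 1 group 4 of the 19 were lower at an unadjusted limma p under 0.05. None of the 17 genes of granulosa identity and FSH response lay outside the range, against 15.1% of all genes. Of the 17, 3 were called higher and 2 lower, near the 17.0% and 14.8% of all genes. The 3 called higher became 1 after median centring of the arrays, 1 with array weights, 1 with PM and VVM as 1 group, 1 with the 3' to 5' difference as a covariate, 1 without IVM 2 and 1 without IVM 3.

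How a gene was represented, and the scaling, changed some of the calls and positions given above. The call of CA12 was lost (-0.58) when cross-hybridizing probe sets were left out, and KRT19 and ATP5F1C lay within the range. With the mean of the probe sets of a gene the calls of OAS1 (-0.44), WARS1 (0.38), SLC38A4 (-0.24), CA12, FDXR, GPI, HADHA, PDIA3, PLAU and TSPO were lost, and KLF2, KRT19, MMP14, PDIA6 and SLC1A4 kept a call within the range. With the most variable probe set the calls of FDXR, GPI, IRS1, PDIA3 and PLAU were lost, and ATP5F1B, ATP5F1C, BST2, MMP14 and PDIA6 kept a call within the range. Centring cost MGST1 its call, quantile normalization HADHA and cyclic loess PDIA3. FDXR, MT3, MVK and PIR kept a call within the range after centring, and DHCR7, GPI, KLF2, PDIA3 and SLC2A3 under quantile normalization. Under cyclic loess the same held for GPI, KLF2, LUM, NDUFA2, PLAU, SLC2A3 and SLC7A5. Some genes moved the other way, such as MARS1, which lay above the range under quantile normalization and under cyclic loess. With the 3' to 5' difference as a covariate the calls of CXCR4, SMAD3, STAR, TNFAIP6, MT3, PIK3R1 and SLC7A5 were lost, among others.

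Set against the shares over all genes, the lists differed widely in how many members lay outside the range. Immediate early genes had 8 of 19 below it, against 5.97% of all genes, and antioxidant, respiratory, steroid and tRNA synthetase genes had 7 of 21, 7 of 23, 4 of 14 and 3 of 11 above it, against 9.15%; the first became 4 of 21 after median centring of the arrays. Lists of expansion, TGF-beta and cholesterol genes, with 2 of 21, 3 of 36 and 1 of 16 above the range, were close to the share of all genes on that side. Below the range these lists had 1 of 21, 4 of 36 and 1 of 16, and the chaperones 5 of 21, against 5.97%. These are counts beside the background, with no test of a list.

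**Figure D5:**
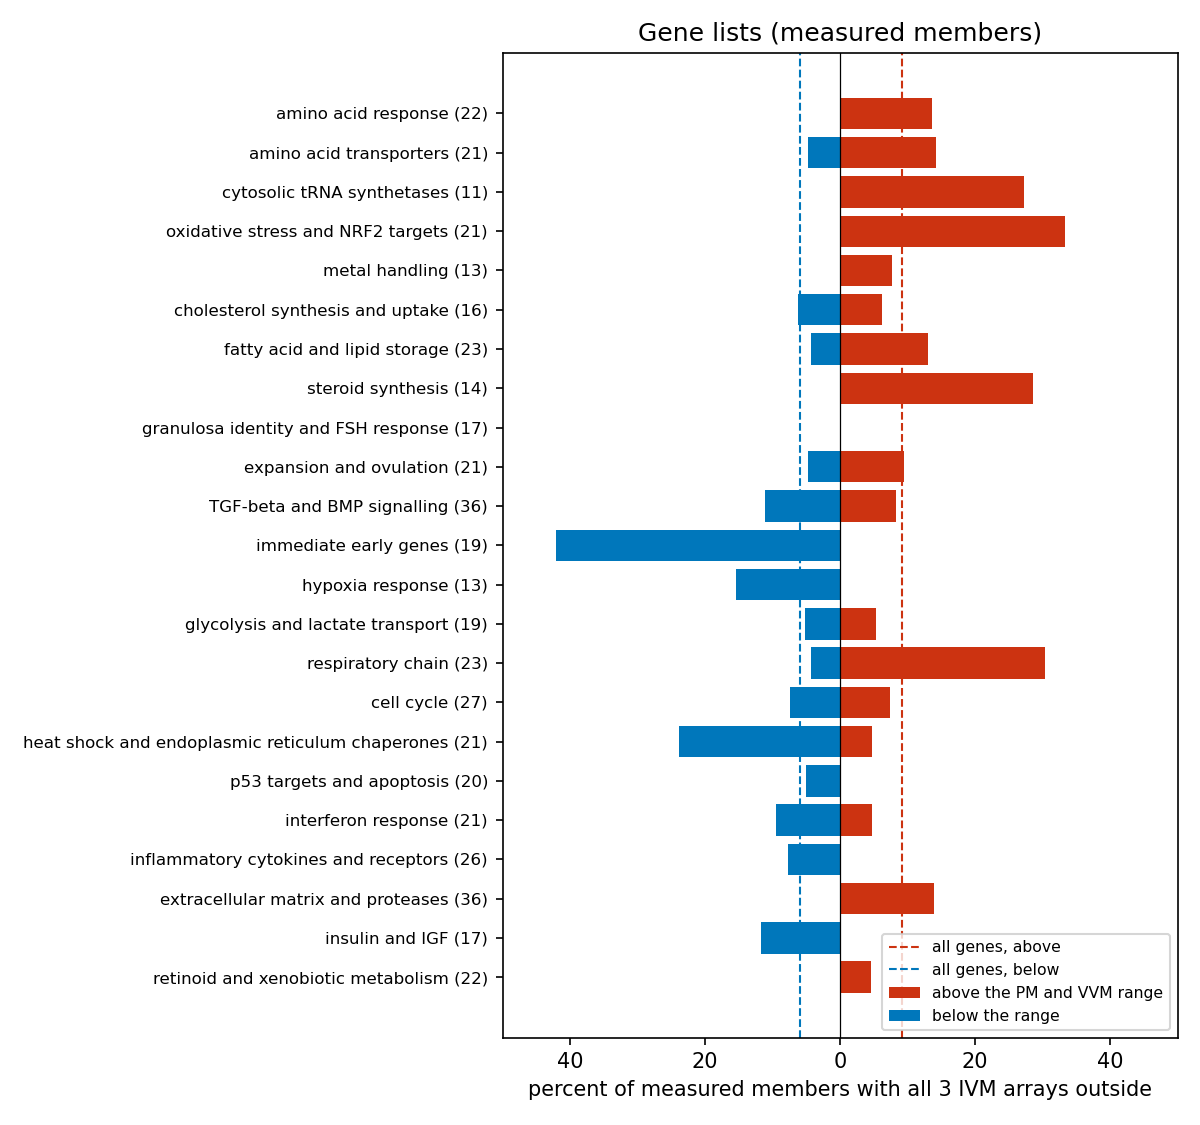
Percent of the measured members of each process list (number in brackets) with all 3 IVM arrays above (right) or below (left) the range of the 8 PM and VVM arrays. Dashed lines mark the same shares over all 14132 genes, 9.15% above and 5.97% below, and the longest bars are those of the immediate early genes to the left (8 of 19) and the antioxidant genes to the right (7 of 21).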

How the data were processed

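RNA of 11 rhesus cumulus cell samples was measured on Affymetrix arrays after amplification of 50 ng of total RNA, per the labels' protocols. The deposited values are intensity on a linear scale, made by the authors with Affymetrix Expression Console and RMA, per the submitters' processing notes, which give no versions. RMA corrects background, makes the arrays share 1 distribution and summarises probes, which can shrink array-wide differences. The log2 of each deposited value was taken with no pseudocount. Of 52865 probe sets 99 were controls, 24956 of the others had 1 symbol, 361 had several and 27449 had none. Symbols came from the platform annotation, and 24616 matched a RefSeq gene by identifier. A gene was represented by its probe set with the highest mean over all arrays (14132 genes, 6375 with more than 1 probe set). One model with 3 group means was fitted with limma 3.58.1 in R 4.3.3 (8 residual and 3.30 prior degrees of freedom), and two-sided p-values were adjusted by Benjamini-Hochberg over 52766 probe sets. The script was tested on simulated data. Contrasts are given as the log2 difference ± its standard error, levels as mean ± SD (n = 3 in IVM, 4 in PM and VVM). Array medians were 5.34 to 5.53, and a fold against a lower level is at best a lower bound. The number of arrays limits the precision.

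Named were the 15 genes in each direction, called and outside the range, with the largest smaller difference (the smaller of IVM minus PM and IVM minus VVM), the 5 with the largest contrast, and up to 4 members of each of 23 lists by absolute contrast. Other genes, such as further list members outside the range, were chosen after their values were seen. The genes described and the lists (738 genes with 7 cell type lists, 536 of them measured) were chosen with earlier results of these data known. Same-numbered samples did not deviate together (residual correlations -0.107 to 0.101), so the numbers were not used to pair them. The 28 alternatives changed scaling, filters, representative probe set, thresholds, prior, array weights, covariates and the arrays used. A planned description of promoter motifs was not run, since no promoter sequences were used here.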

Additional observations from a re-analysis of the deposited data

Results flagged for a closer look

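In 14 of 302 group values of 4 arrays tested, 1 array stood apart from the other 3 by Dixon's criterion (critical value 0.829), and chance gives about 1 in 20. In PM these were EGR2 in PM 2 (9.07, the others 10.63 to 10.91), KLF2 in PM 3 (8.77), SLC2A1 in PM 4 (9.61), MAD2L1 in PM 4 (8.60), IGFBP1 in PM 4 (5.61, the others 3.40 to 3.59), MMP10 in PM 1 (3.61), PIR in PM 2 (9.17), NDUFA2 in PM 1 (9.60) and PDIA3 in PM 2 (11.81). In VVM they were CRYGC in VVM 2 (6.43), ATP5MC1 in VVM 1 (9.72), DNAJB1 in VVM 4 (10.82), CCN2 in VVM 1 (8.45, the others 9.87 to 10.05) and NR4A2 in VVM 1 (10.79). All are log2 intensities. Beyond the genes with a symbol, 2824 of 27810 probe sets without a symbol of their own or with several symbols lay outside the PM and VVM range and were called in the contrast.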

How the results depend on the processing

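Leaving out 1 array at a time gave 1360 to 2435 genes called higher and 1341 to 2149 lower, 1328 to 2357 above and 867 to 1478 below the range, and 1035 to 1855 higher and 759 to 1340 lower both outside and called. Higher calls numbered 1523 without IVM 1 and 1360 without IVM 2, and without IVM 3 they numbered 2435, with 2357 genes above and 1478 below the range. Higher and lower calls were 379 and 974 at 2-fold or more (257 and 499 outside the range), 959 and 1196 at an adjusted p under 0.01 (738 higher outside), 836 and 734 with PM and VVM as 1 group (763 higher outside), 916 and 997 with the 3' to 5' covariate (628 higher outside), and 0 and 4 with the hybridization control covariate (0 and 4 outside). With that covariate 1166 genes had an unadjusted limma p under 0.05 and were higher, and 765 lower. Centring gave 1434 higher calls (773 outside), and leaving out PM 1, VVM 2 and VVM 3 gave 1354 higher calls and 1948 genes above the range. With the replicate number as a block, 3496 genes were called, 1719 higher and 1777 lower, and 3343 of the 4487 calls were kept; the samples share only a number, so this is no paired result. Signs reversed for CCL3 (0.43) and NDUFA2 (-0.0026, without probe sets that can cross-hybridize), for E2F1 (-0.014 as the mean of its probe sets, -0.88 for the most variable one) and, with the hybridization control covariate, for CPT1A (0.64), CYP19A1 (-0.31), WT1 (1.67), CRYAB (-0.044), ATP7A (0.51), HEPH (0.045), UQCRC2 (0.74), ISG15 (-0.13), HADHA (0.019) and NDUFA4 (-0.16). Of the 151 genes run (those the rule named and list members outside the range) the other 138 kept their direction in the 26 to 28 alternatives that gave each a value, 47 of the 132 called lost their call with PM and VVM as 1 group, and the causes were not tested. No detection calls were used here, and signal over background limits genes near or under the array medians.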

Other observations

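Besides the probe set annotated as USP14, described above, 2 genes on no list kept their call with the hybridization control level as a covariate. They were chosen for that after their values were seen. ALDH1L1 encodes a folate enzyme that releases formate from formyl-tetrahydrofolate as carbon dioxide. It stood at 6.71, 6.26 and 6.13 in IVM 1 to 3, at 10.13, 9.97, 9.98 and 10.48 in PM 1 to 4 and at 8.39, 8.68, 8.88 and 8.52 in VVM 1 to 4. The groups did not overlap, in the falling order PM, VVM and IVM, with a contrast of -3.01 ± 0.16 (limma, adjusted p = 6.97e-06) and -3.37 ± 0.35 with the covariate (adjusted p = 0.0232). CNST, which encodes consortin, a protein that takes part in delivering connexins to the cell surface, was at 4.48, 4.77 and 4.24 in IVM 1 to 3, 6.64, 7.11, 6.96 and 6.76 in PM 1 to 4 and 5.29, 5.92, 5.84 and 5.32 in VVM 1 to 4. Its contrast was -1.73 ± 0.17 (adjusted p = 0.000137), and the groups again did not overlap. Both genes have 1 probe set.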
